A study of Mus musculus with 18 samples.

Results

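RNA-seq libraries of mouse embryonic stem cells labelled as a Ring1b knockout were compared with libraries of wild-type cells. The comparison holds 6 of the 18 libraries of the series, the 3 labelled Ring1b-KO and the 3 labelled WT, and covers every gene that passed a filter of 1 TPM in at least 3 of the 18 libraries, which was 17842 of 56551 genes. TPM is a transcript level scaled for gene length and library size. The genotype is the sole difference the labels give between the 2 groups: Ring1b is named as knocked out in Ring1b-KO and not in WT. Ring1a is not named as altered in either. The labels describe no allele and no protein level. The libraries labelled Ring1a-KO (Ring1a removed) and Ring1a/b-dKO (Ring1a and Ring1b removed), 3 each, are given beside them where the response is set against that of the other genotypes. Pcgf-4KO and Pcgf-6KO libraries, which lack several Pcgf genes, entered the fit for its estimate of the spread and are not described. The labels name no parental line, clone, medium, sex or culture, so it is not known if the replicate libraries were grown separately, and the p-values measure the spread between these libraries.

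Ring1b, whose gene symbol is Rnf2, and its relative Ring1a, whose symbol is Ring1, are the RING-finger subunits of Polycomb repressive complex 1 (PRC1), which attaches a single ubiquitin to histone H2A. Each PRC1 particle pairs one of them with a Pcgf protein. Canonical particles add Cbx and Phc proteins and bind chromatin marked by PRC2, the methyltransferase of histone H3, whereas variant particles contain Rybp or Yaf2 and reach DNA through partners such as Kdm2b at CpG islands or Mga, Max and E2f6 at germ-cell genes. In embryonic stem cells these complexes are known for keeping developmental regulators and germ-cell genes at low levels.

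Rnf2 itself (chr1:151458004-151500955, minus strand, GRCm38) was at 76.4, 71.5 and 65.9 TPM in the 3 WT libraries and 47.8, 53 and 47.4 TPM in the 3 Ring1b-KO libraries (log2 difference -0.52 ± 0.08, adjusted p = 6.32e-05; limma on log2(TPM + 1) with Benjamini-Hochberg adjustment over all 17842 genes, ± is the standard error). All 3 knockout values lay below all 3 WT values, in the direction of the label, yet most of the signal remained. The labels do not say which exons were removed, and a gene-level TPM also counts reads from exons outside a deletion, so this level checks the label in part. In Ring1a/b-dKO libraries Rnf2 was at 24.7, 24.1 and 19.4 TPM. Ring1 (chr17:34020792-34024680, minus strand) was at 7.42, 7.1 and 7.11 TPM in WT and 8.55, 11.9 and 9.17 TPM in Ring1b-KO. The groups did not overlap, but the difference did not pass the test (log2 difference 0.39 ± 0.28, adjusted p = 0.258). Ring1a-KO libraries gave 5.46, 3.83 and 2.86 TPM of Ring1.

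The label embryonic stem cell was checked with 15 marker genes. Their summed level was 5311 ± 45.9 TPM (SD, n = 3) in WT and 8624 ± 338 TPM in Ring1b-KO. Most of this gain was Dppa5a, at 1794 ± 32.7 and 4761 ± 294 TPM, and 9 of the 15 markers rose and 6 fell. Pou5f1, the central pluripotency factor, was at 1116, 1101 and 1119.7 TPM in WT and 1011, 989 and 1039.7 TPM in Ring1b-KO, and Sox2, its partner, was at 253, 247 and 240.1 and 206, 205 and 223 TPM. Of 15 fibroblast (feeder) markers 9 were tested, of which 4 rose and 3 fell, or 2 and 4 after quantile normalization. The 4 that rose as deposited are not named here. None of them rose by 2-fold on the log2(TPM + 1) scale, and 2 of the 3 fell by that much. The summed level of the 15 markers was 312 ± 5.02 TPM in WT and 223 ± 4.84 TPM in Ring1b-KO. Of this sum Fn1, also expressed by embryonic stem cells, gave 274, 274 and 280.0 and 188, 198 and 197 TPM. Tagln fell from 13.8, 19.13 and 16.2 to 2.33, 2 and 2.84 TPM. Col3a1, Dcn, Lum and Postn, which mark fibroblasts, stayed under 1 TPM in every library of both groups. Of 9 blood cell markers 4 were tested, of which 2 rose and 1 fell. The 2 that rose are not named here and did not reach 2-fold on that scale. The 9 summed to 28.7 ± 1.87 and 17.7 ± 1.29 TPM, most of it Cd68, and Ptprc and Hbb-bs were under 1 TPM throughout.

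Some properties of the libraries moved with the genotype. Ring1b-KO libraries had 15528 to 15668 genes at 1 TPM or more, against 14207 to 14225 in WT, and the share of TPM from mitochondrial genes was 6.955 to 7.342% against 6.378 to 6.878%. The 6 Y-linked marker genes summed to 70.5 ± 2.81 TPM in WT and 8.85 ± 0.46 TPM in Ring1b-KO. Over 6290 protein-coding genes at 10 TPM or more in every library, the median log2 difference from the WT mean lay between -0.059 and 0.083 on the other chromosomes of the Ring1b-KO libraries. Chromosomes 16 and 11 stood below this range, at -0.221, -0.199 and -0.220 on chromosome 16 and -0.128, -0.116 and -0.121 on chromosome 11. Each of 6 segments of chromosome 16 (-0.312 to -0.124) and of chromosome 11 (-0.165 to -0.092) had a negative median. In the 12 libraries of the other knockouts, the chromosome 16 median was 0.212 to 0.311 and that of chromosome 11 was -0.014 to 0.091. The part of these chromosome-wide shifts in single-gene results was not tested beyond the value with the shifts removed, which is given where it moves the count of a list by over 1.5 times. Among genes with a median of 5 TPM or more over the 6 libraries, 70 were listed at 0 in at least 1 of them, so an exact 0 is reported as listed at 0.

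**Figure D1:**
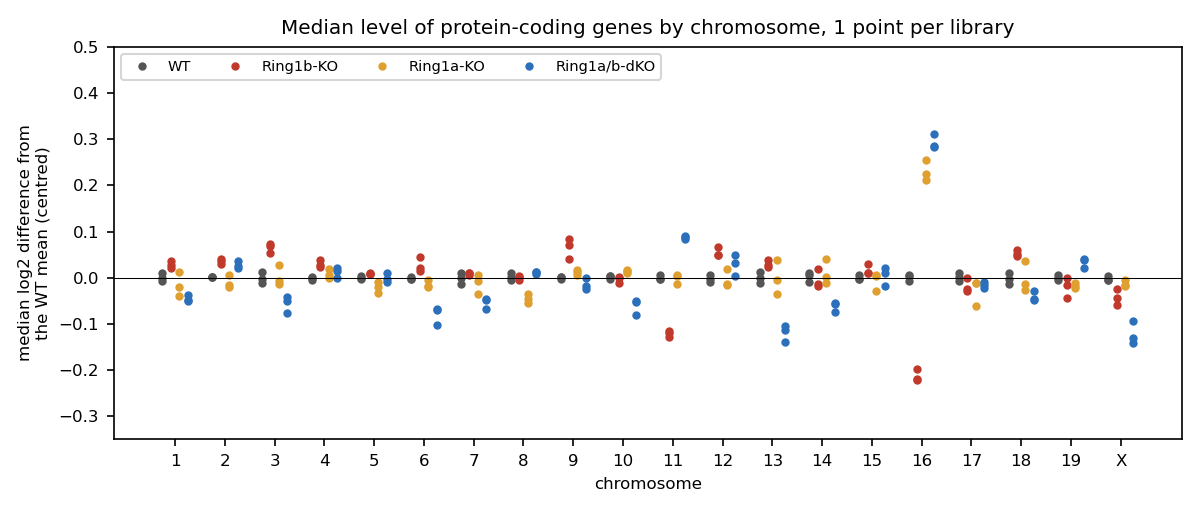
Median log2 difference of steadily expressed protein-coding genes from the mean of the WT libraries (vertical axis) for each chromosome (horizontal axis), with 1 point per library and colours for WT, Ring1b-KO, Ring1a-KO and Ring1a/b-dKO. The 3 Ring1b-KO points lie at -0.221 to -0.199 on chromosome 16 and at -0.128 to -0.116 on chromosome 11, and within -0.059 to 0.083 elsewhere.

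The comparison gave a broad change in which rises outnumbered falls as deposited. Of 17842 genes tested, 9247 (51.8%) passed an adjusted p of 0.05, 6200 (34.7%) higher and 3047 (17.1%) lower in Ring1b-KO. Rises were 67.0% of the calls as deposited, 58.2% after median ratio scaling and 46.4% after quantile normalization, which moved the median log2 difference of all genes from 0.13 to 0.07 and -0.03, so the balance of small changes depends on the scaling. Changes of at least 2-fold on the log2(TPM + 1) scale numbered 1472 higher (8.25%) and 422 lower (2.37%), and these read 953 and 713 after quantile normalization. The libraries of the 2 groups did not overlap in TPM at 11074 of the genes (62.1%), the background against which single genes without overlap stand. Most genes named below were chosen among called genes without overlap, and some also for differing from Ring1a/b-dKO. For these the lack of overlap and the passed test follow from the choice and add no support. Of the 3622 tested genes with a WT mean under 1 TPM, 1777 rose and 43 fell, whereas of the 1376 genes at 100 TPM or more 283 rose and 504 fell. Genes under 1 TPM in WT passed the filter through other groups, Ring1b-KO among them, so the direction of their calls is set in part by the filter. By class, 346 of 1193 long noncoding RNAs rose and 92 fell, and 213 of 996 pseudogenes rose and 66 fell. For each list described as having no member that rose, or none that fell, limma also gave 0 members in that direction at an unadjusted p under 0.05. Hox genes (0 of 37 at 1 TPM or more in WT) and 2-cell-like genes (3 of 30) had almost no room to fall. For such lists the low WT level and the filter largely fixed this outcome, so it adds no support.

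**Figure D2:**
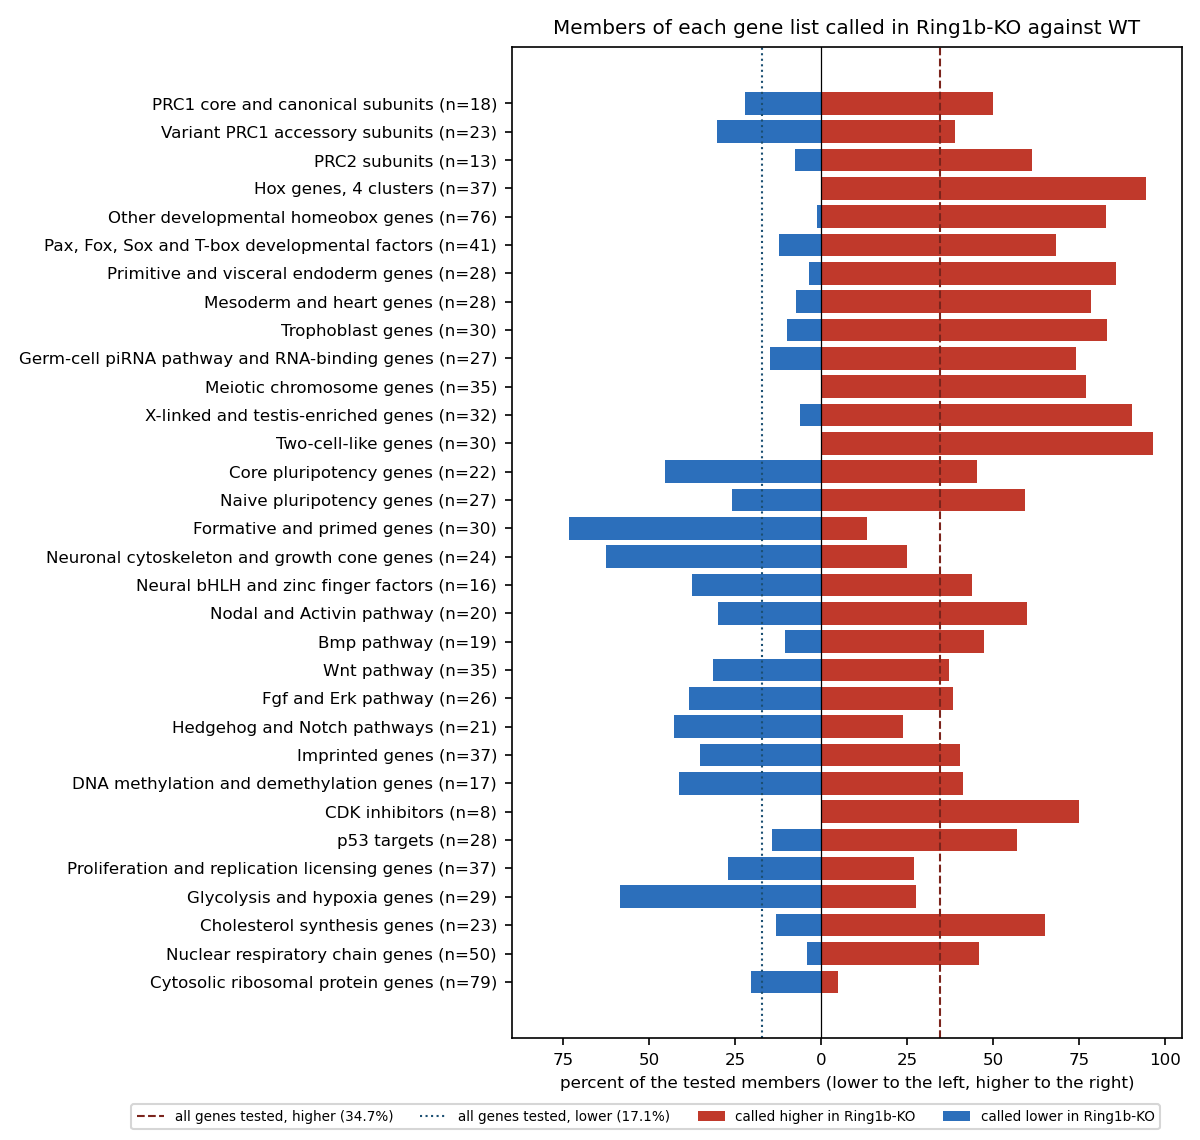
Share of the tested members of each gene list called higher (red, to the right) or lower (blue, to the left) in Ring1b-KO against WT, in percent of the tested members, with the shares over all 17842 genes as broken lines (34.7% higher, 17.1% lower). Hox, 2-cell-like, X-linked and testis-enriched, endoderm and trophoblast lists extend far to the right, and the formative and the neuronal cytoskeleton lists extend to the left.

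Genes of the germ line, which serve meiosis, the piRNA pathway that silences transposons, and testis-enriched programmes, gave some of the highest rises. Of 35 tested meiotic chromosome genes 27 rose and none fell (median log2 difference 1.27, against 0.13 over all genes). Of 27 tested piRNA-pathway and germ-cell RNA-binding genes 20 rose and 4 fell (median 1.17), and of 32 tested X-linked and testis-enriched genes 29 rose and 2 fell (median 2.41). A gene silent in WT can enter the test only through a group in which it is present, and 23, 19 and 14 members of these lists had 1 TPM or more in WT, so the counts describe the members and are not support for a direction. The starts of some of these genes are shown first, because the Mga, Max and E2f6 subunits of the Pcgf6-containing variant PRC1 bind the letters CACGTG (an E-box, its own reverse complement) and GCGGGAA (an E2F-type motif, also read as TTCCCGC on the other strand). Fkbp6 and Sycp1 (piRNA pathway and synaptonemal complex), Hormad1 (meiotic chromosome axis, shown because it holds both motifs and chosen after its value was seen) and Taf7l (a testis-enriched relative of a TFIID subunit, X-linked) hold a motif. Syce1, of the same synaptonemal complex, holds neither. Each is the 250 bases before the RefSeq start (GRCm38.p6), 5′ to 3′ on the gene's strand, with motifs in capitals.
Fkbp6: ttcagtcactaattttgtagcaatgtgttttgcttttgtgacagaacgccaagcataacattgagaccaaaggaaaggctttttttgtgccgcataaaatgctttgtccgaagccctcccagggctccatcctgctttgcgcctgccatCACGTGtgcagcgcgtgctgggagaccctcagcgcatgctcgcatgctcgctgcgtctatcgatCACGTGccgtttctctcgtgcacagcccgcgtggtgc
Sycp1: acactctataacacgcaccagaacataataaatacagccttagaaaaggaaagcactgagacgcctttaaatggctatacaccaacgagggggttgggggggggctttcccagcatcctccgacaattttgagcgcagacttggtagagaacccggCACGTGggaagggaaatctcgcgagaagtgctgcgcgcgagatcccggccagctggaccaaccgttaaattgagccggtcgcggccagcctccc
Hormad1: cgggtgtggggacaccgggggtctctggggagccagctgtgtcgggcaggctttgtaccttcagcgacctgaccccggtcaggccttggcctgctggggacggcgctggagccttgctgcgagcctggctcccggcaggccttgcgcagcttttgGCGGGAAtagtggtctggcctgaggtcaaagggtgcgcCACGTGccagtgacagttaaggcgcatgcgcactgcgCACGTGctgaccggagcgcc
Taf7l: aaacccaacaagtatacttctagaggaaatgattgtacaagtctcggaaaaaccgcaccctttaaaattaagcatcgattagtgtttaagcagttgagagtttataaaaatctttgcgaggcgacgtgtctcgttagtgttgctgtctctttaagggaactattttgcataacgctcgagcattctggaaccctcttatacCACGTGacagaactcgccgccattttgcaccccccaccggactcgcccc
Syce1: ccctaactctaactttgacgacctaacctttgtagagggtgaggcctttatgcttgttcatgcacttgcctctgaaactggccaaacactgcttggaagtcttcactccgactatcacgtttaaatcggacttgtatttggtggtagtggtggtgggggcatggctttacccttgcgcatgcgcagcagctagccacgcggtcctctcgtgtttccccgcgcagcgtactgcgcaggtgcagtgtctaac

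These windows are chr5:135350045-135350294 (minus strand), chr3:102936101-102936350 (minus), chr3:95559427-95559676 (plus), chrX:134476491-134476740 (minus) and chr7:140787855-140788104 (minus). CACGTG began 101 and 37 bases before the start of Fkbp6, 94 bases before that of Sycp1, 49 bases before that of Taf7l and 57 and 20 bases before that of Hormad1, whose GCGGGAA began 95 bases before it. CG pairs numbered 17 in Fkbp6, 17 in Sycp1, 19 in Hormad1, 14 in Taf7l and 13 in Syce1. Over windows from 250 bases before to 50 bases after the start, CACGTG was in 7.15% of the 32851 promoters of the RefSeq table, in 10.2% of the 11658 tested genes with a promoter there and in 6 of 30 meiotic genes. GCGGGAA was in 4.60% of the table, 8.42% of the tested genes and 11 of 30 meiotic genes (36.7%). Both were in 0.823% of the tested genes and in 5 of 30 meiotic genes (16.7%), namely Sycp3, Tex12, Stag3, Hormad1 and Slc25a31, named after their values were seen, and all 5 rose. Of the 6 meiotic genes with GCGGGAA alone 3 rose, as did the 1 with CACGTG alone, and of the 18 with neither motif 13 rose, Syce1 among them. These are letter matches and no measure of binding. Of the 27 piRNA-pathway genes 21 had an entry in the table, and CACGTG was in 10 of these 21 and GCGGGAA in 2. With 6 genes missing, these counts may not hold for the list.

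Fkbp6, an immunophilin needed in the piRNA pathway of male germ cells, was at 0.3, 0.41 and 0.11 TPM in WT and 49, 43.9 and 45.5 TPM in Ring1b-KO (log2 difference 5.22 ± 0.09, adjusted p = 3.05e-15). Asz1, which anchors piRNA factors at mitochondria, was at 0.15, 0.08 and 0 and 10.1, 10.04 and 11.8 TPM (log2 difference 3.43 ± 0.09, adjusted p = 3.53e-13). Both went from near the detection limit to a clear level in all 3 knockout libraries. Both were also higher in Ring1b-KO than in Ring1a/b-dKO, where Fkbp6 was at 2.17, 2.36 and 2.61 TPM (log2 difference of Ring1b-KO from Ring1a/b-dKO 3.802 ± 0.09, adjusted p = 6.59e-14) and Asz1 at 2.94, 3.36 and 3.29 TPM (1.47 ± 0.09, adjusted p = 4.58e-09). Tdrd12, Dnd1, Dppa3 and Prdm1 were the 4 members of that list that fell, Tdrd12 with an adjusted p of 0.0531 to 0.0846 when WT library 1 or 2 or Ring1b-KO library 2 or 3 was left out. Dppa3 (Stella), of primordial germ cells and the egg, fell from 78.5, 76.5 and 74.9 to 47.2, 42.6 and 47.7 TPM, and Prdm1, which specifies primordial germ cells, fell from 3.12, 3.5 and 3.3 to 1.96, 1.93 and 1.67 TPM.

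Among meiotic genes, Sycp1, the transverse filament of the synaptonemal complex, was at 2.58, 2.53 and 3.54 TPM in WT and 53.3, 61.2 and 52.9 TPM in Ring1b-KO (log2 difference 3.88 ± 0.16, adjusted p = 2.85e-11). Syce1, of its central element, was at 5.13, 4.67 and 4.51 and 63.3, 60.9 and 56.6 TPM (log2 difference 3.41 ± 0.07, adjusted p = 9.65e-15). Every knockout library was over 10 TPM above every WT library for both. In Ring1a/b-dKO, Sycp1 was at 51.5, 51.1 and 51.6 TPM, which did not differ from Ring1b-KO beyond the error (log2 difference 0.11 ± 0.16, adjusted p = 0.566). Hormad1 was at 4.38, 5.01 and 5.94 TPM in WT and 28.8, 26.8 and 27.7 TPM in Ring1b-KO (log2 difference 2.24 ± 0.12, adjusted p = 4.12e-10). Tex11, an X-linked gene needed for crossing over, was at 0.93, 1.36 and 0.79 and 27.4, 28 and 25.7 TPM, and Tex101, a germ-cell surface protein, was at 1.18, 0.3 and 0.5 and 21.1, 22 and 24 TPM. Tex101 was higher still in Ring1a/b-dKO, at 70.1, 75 and 67 TPM (log2 difference -1.62 ± 0.14, adjusted p = 7.83e-08).

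X-linked members rose by similar amounts. Taf7l was at 0.94, 1.02 and 1.03 TPM in WT, 27.9, 30.4 and 30.5 TPM in Ring1b-KO and 103, 99.2 and 96.5 TPM in Ring1a/b-dKO (log2 difference 3.94 ± 0.08, adjusted p = 2.53e-14 against WT). Mageb4, of the Mage family of cancer-testis genes, was at 0.3, 0.27 and 0.27 TPM in WT and 21.6, 21.5 and 21.1 TPM in Ring1b-KO (log2 difference 4.13 ± 0.05, adjusted p = 7.82e-17), and stood at 20.9, 21.6 and 20.6 TPM in Ring1a/b-dKO. Levels in the 3 knockout libraries were close to each other for both. Esx1, a homeobox gene of placenta and testis, was at 1.78, 0.77 and 1.6 and 35.3, 34 and 36.3 TPM, and Rhox5, the best studied gene of the X-linked Rhox cluster, at 97, 93.7 and 99.2 and 583, 561 and 569 TPM. Usp26 and Nxf3 were the 2 members that fell, Usp26 from 33.9, 34.3 and 32.2 to 20.2, 21 and 20.1 TPM.

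Genes of the Xlr family, which encode relatives of the synaptonemal complex protein Sycp3, made up most of the longest run of neighbouring protein-coding genes that were at least 2-fold higher. The run holds 9 tested genes at chrX:73033981-73292976, with Pnma5, Gm14685 and DXBay18 beside 6 Xlr genes, and a median log2 difference of 3.74. Xlr3a was at 1.95, 1.13 and 1.65 TPM in WT, 53.3, 52.1 and 50.4 in Ring1b-KO and 19.7, 14.9 and 19.3 in Ring1a/b-dKO. Xlr5a was listed at 0 in all WT libraries, was at 14.4, 13.4 and 15.8 TPM in Ring1b-KO and stayed at 0.37, 0.18 and 0.11 TPM in Ring1a/b-dKO. Both differed between the 2 knockouts, Xlr3a by 1.49 ± 0.13 and Xlr5a by 3.67 ± 0.09 on the log2 scale (adjusted p = 1.08e-07 and 1.26e-13). Members of this family are near-identical copies, so the split of reads among them is uncertain. On the X chromosome as a whole 246 of 607 tested genes rose (40.5%) and 129 fell (21.3%), against 34.7% and 17.1% over all genes. Of the 607, 91 were at least 2-fold higher and 32 at least 2-fold lower. Both are larger shares than the 8.25% and 2.37% over all genes.

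**Figure D3:**
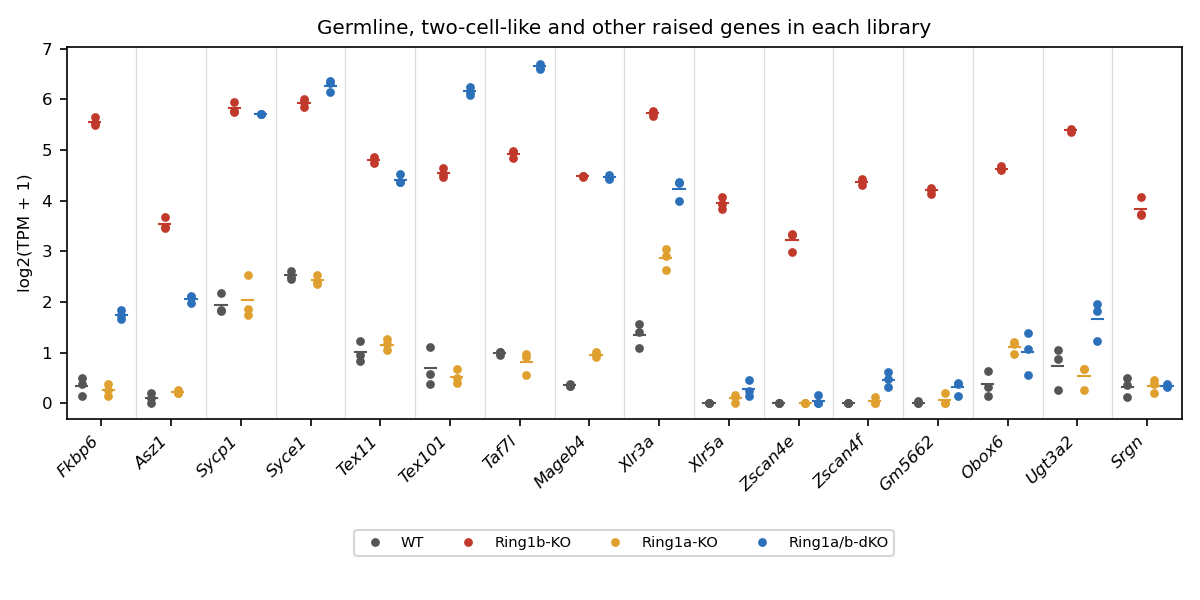
Level as log2(TPM + 1) of germ-line, 2-cell-like and other genes in each library, with 1 point per library, a bar at the group mean and colours for WT, Ring1b-KO, Ring1a-KO and Ring1a/b-dKO. For Xlr5a, Zscan4e, Zscan4f, Gm5662, Obox6, Ugt3a2 and Srgn the Ring1b-KO libraries stand above all 3 other groups, and for Tex101 and Taf7l the Ring1a/b-dKO libraries stand highest.

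Genes of the 2-cell-like state, a rare state of embryonic stem cells that express genes of the 2-cell embryo, were higher in Ring1b-KO than in both other Ring1 genotypes. The 41 listed genes in the table summed to 41.4 ± 3.41 TPM in WT, 214 ± 13.0 TPM in Ring1b-KO, 38.3 ± 2.22 TPM in Ring1a-KO and 57.6 ± 3.24 TPM in Ring1a/b-dKO. Of 30 tested members 29 rose against WT and none fell (median log2 difference 2.04), and 3 of the 30 had 1 TPM or more in WT. Against Ring1a/b-dKO, where 3358 of all genes tested (18.8%) were higher and 7334 (41.1%) lower in Ring1b-KO, 29 of the 30 were higher and 1 lower. In bulk libraries a larger number of cells in such a state and more RNA per cell cannot be told apart.

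Zscan4e, of the Zscan4 zinc finger family that acts at telomeres, was listed at 0 in all 3 WT libraries and was at 6.97, 9.18 and 8.97 TPM in Ring1b-KO. Gm5662, a predicted gene of an Eif1a-like cluster, was at 0, 0 and 0.04 TPM in WT, 16.6, 18.1 and 17.6 in Ring1b-KO and 0.11, 0.33 and 0.31 in Ring1a/b-dKO. Both families lie in runs of neighbouring raised genes, 8 at chr7:10900740-11614112 (Zscan4) and 7 at chr12:88011848-88324026. Starts of Zscan4c and Zscan4f are shown to make plain how alike the copies are (GRCm38.p6, both on the plus strand, chr7:11005495-11005744 and chr7:11397665-11397914, the 250 bases before the RefSeq start, with no CACGTG or GCGGGAA and 3 CG pairs each).
Zscan4c: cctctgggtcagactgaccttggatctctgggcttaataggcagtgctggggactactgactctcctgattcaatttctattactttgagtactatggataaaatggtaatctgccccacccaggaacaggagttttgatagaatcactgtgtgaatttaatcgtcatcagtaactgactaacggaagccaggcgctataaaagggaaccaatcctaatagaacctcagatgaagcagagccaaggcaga
Zscan4f: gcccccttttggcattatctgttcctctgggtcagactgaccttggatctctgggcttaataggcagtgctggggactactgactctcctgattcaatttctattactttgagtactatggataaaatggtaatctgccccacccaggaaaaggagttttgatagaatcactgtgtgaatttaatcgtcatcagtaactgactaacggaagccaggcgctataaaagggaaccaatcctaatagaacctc

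With the second window shifted by 23 bases, 226 of 227 positions held the same letter. These windows lie upstream of the transcripts, and transcript sequences were not compared. Zscan4c was at 12.5, 11.1 and 11.8 TPM and Zscan4f at 19.9, 20.6 and 18.9 TPM in Ring1b-KO, and how reads were split among members of the family is uncertain.

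Some of the genes that rose highest belong to none of the lists and were highest in Ring1b-KO. Obox6, an oocyte-type homeobox gene, was at 0.11, 0.56 and 0.26 TPM in WT, 24.8, 23.3 and 23.6 in Ring1b-KO, 1.27, 0.96 and 1.32 in Ring1a-KO and 0.48, 1.62 and 1.12 in Ring1a/b-dKO (log2 difference 4.26 ± 0.18, adjusted p = 3.1e-11 against WT). Ugt3a2, a UDP-glycosyltransferase, was at 0.85, 1.09 and 0.2 TPM in WT, 40.0, 41.1 and 41.8 in Ring1b-KO and 2.88, 2.53 and 1.35 in Ring1a/b-dKO (log2 difference 4.65 ± 0.22, adjusted p = 1.49e-10). Srgn, the proteoglycan core protein serglycin, was at 0.09, 0.42 and 0.28, 12.4, 15.9 and 12.1 and 0.27, 0.26 and 0.3 TPM in the same order. For all 3 genes every Ring1b-KO library lay above every library of the other groups named, and the difference from Ring1a/b-dKO passed the test (log2 difference 3.62 ± 0.18, 3.72 ± 0.22 and 3.49 ± 0.22, adjusted p = 2.04e-10, 1.86e-09 and 3.86e-09). Genes here were named in part for standing apart from WT and Ring1a/b-dKO, so the separation from these groups adds no support.

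Hox genes, which set position along the body axis and are textbook Polycomb targets, rose in all 4 clusters. Of 39 genes 37 were tested, 35 rose and none fell (median log2 difference 1.31). Hoxb1 and Hoxb5 did not pass (0.04, 0 and 0.03 TPM in WT and 0.18, 0.04 and 0.13 TPM in Ring1b-KO for Hoxb5), and Hoxa6 and Hoxd3 were below the filter. None of the 37 reached a mean of 1 TPM in WT. The cluster sums were 0.67 ± 0.24 TPM in WT and 34.9 ± 2.13 TPM in Ring1b-KO for HoxA, 0.42 ± 0.21 and 19.3 ± 1.07 for HoxB, 0.58 ± 0.06 and 20.8 ± 0.30 for HoxC, and 0.88 ± 0.13 and 25.7 ± 1.02 for HoxD. HoxB lies on chromosome 11, and 8 of its 10 genes also rose with the negative shift of that chromosome removed. Its removal raises the Ring1b-KO values there, so this adds no support for the rises. Ring1a-KO libraries resembled WT, with sums of 0.77, 0.59, 0.85 and 1.17 TPM. Ring1a/b-dKO libraries held more, at 54.8, 42.4, 43.2 and 43.0 TPM, and 34 of the 37 genes were lower in Ring1b-KO than in Ring1a/b-dKO and none higher.

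Within the clusters the levels were uneven. Among HoxA genes, Hoxa10 (8.87, 6.42 and 8.65 TPM in the 3 Ring1b-KO libraries, 0, 0.15 and 0 in WT) and Hoxa9 (6.09, 5.95 and 8.27 and 0, 0.1 and 0.02) were near the top, while Hoxa2 reached 0.47, 0.38 and 0.36 TPM and Hoxa4 0.4, 0.7 and 0.54 TPM. Of the 5′ genes, which act furthest back in the body, Hoxb13 was at 5.7, 4.39 and 5.28 TPM, Hoxc12 at 5.28, 4.83 and 6.31 TPM, Hoxc13 at 4.15, 4.11 and 4.5 TPM and Hoxd13 at 8.49, 9.96 and 9.92 TPM. Their neighbours Hoxd11 and Hoxd12 stayed under 1 TPM, at 0.54, 0.46 and 0.53 and 0.45, 0.41 and 0.22 TPM. Hoxb6 was at 0.26, 0.27 and 0.56 TPM in Ring1b-KO and 3.83, 5.41 and 4.26 TPM in Ring1a/b-dKO, a wide gap between the 2 knockouts (log2 difference -2.01 ± 0.12, adjusted p = 2.39e-09). Hoxa9, at 5.96, 7.73 and 5.3 TPM in Ring1a/b-dKO, and Hoxd8, at 3.54, 3.32 and 2.11 TPM, did not differ from it beyond the error (log2 differences 0.09 ± 0.17 and 0.26 ± 0.22, adjusted p = 0.68 and 0.328).

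**Figure D4:**
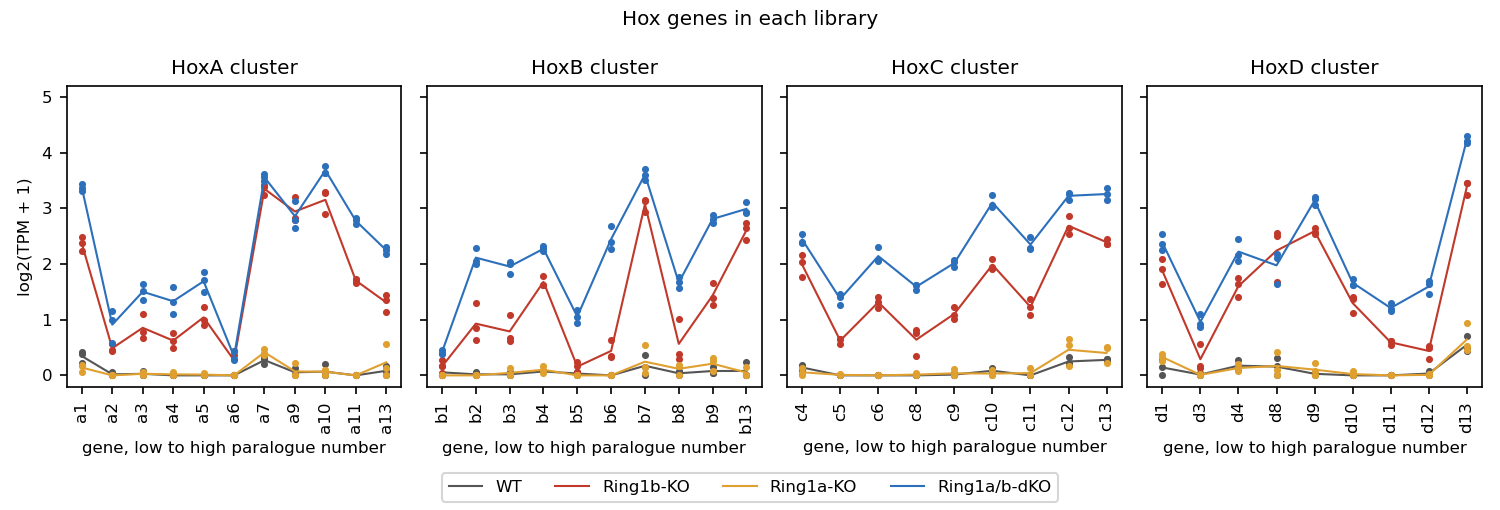
Level as log2(TPM + 1) of each Hox gene (horizontal axis, in order of paralogue number) in the 4 clusters, with 1 point per library and lines through the group means of WT, Ring1b-KO, Ring1a-KO and Ring1a/b-dKO. WT and Ring1a-KO lie near 0 throughout, and the Ring1b-KO line lies between them and the Ring1a/b-dKO line for most genes, with summed levels of 34.9, 19.3, 20.8 and 25.7 TPM for HoxA to HoxD.

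Homeobox genes outside the Hox clusters followed. Of 76 tested, 63 rose and 1, Gbx2, fell (median log2 difference 0.75), and 11 of the 76 had 1 TPM or more in WT. After quantile normalization 43 rose and 6 fell. Barx1, of jaw and stomach mesenchyme, was at 0.62, 1.04 and 0.86 TPM in WT and 11.6, 10.9 and 10.9 TPM in Ring1b-KO (log2 difference 2.73 ± 0.10, adjusted p = 5.66e-12). Pitx1, of the hindlimb, was at 0.08, 0 and 0.03 and 4.92, 3.9 and 5.28 TPM, and Dlx6, of the branchial arches, at 0, 0.18 and 0 and 3.9, 4.61 and 3.41 TPM. The groups were far apart for all 3, and Ring1a/b-dKO held more of each (29.9 ± 2.33, 14.3 ± 1.04 and 7.36 ± 1.82 TPM, mean ± SD). Against Ring1a/b-dKO 68 of the 76 were lower in Ring1b-KO and 2 higher. Gbx2, an anterior hindbrain gene that embryonic stem cells express as a target of Lif signalling, fell from 45.5, 46.8 and 50.4 to 13.9, 12.8 and 12.9 TPM (log2 difference -1.77 ± 0.09, adjusted p = 1.77e-10).

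Of 41 tested Pax, Fox, Sox and T-box factors 28 rose and 5 fell (median 0.65), with 8 at 1 TPM or more in WT. Sox17, of endoderm, was at 0, 0.19 and 0.39 TPM in WT and 6.03, 4.84 and 5.89 TPM in Ring1b-KO (log2 difference 2.47 ± 0.18, adjusted p = 1.63e-08). Tbx15 was at 0.09, 0.2 and 0.12 and 2.61, 3.21 and 3.27 TPM and Tbx1, of the pharyngeal region, at 0.1, 0.21 and 0.2 and 2.62, 2.33 and 2.88 TPM. All of these were under 1 TPM in every WT library and above 2 TPM in every knockout library. The 5 that fell included Foxi3, Sox11, Pax6 and Sox18. Foxi3, of placodes and hair follicles, fell from 14.4, 14.3 and 16.5 to 2.43, 2.65 and 2.1 TPM and Sox11, of neural progenitors, from 16.5, 17.8 and 16.4 to 4.85, 4.81 and 5.37 TPM.

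Most tested members of the endoderm, mesoderm and trophoblast lists rose, and 18 of 28, 12 of 28 and 21 of 30 had 1 TPM or more in WT. Of 28 tested primitive and visceral endoderm genes 24 rose and 1, Apoe, fell (median 0.94). Col4a1 and Col4a2, the collagen chains of basement membrane that parietal endoderm lays down, were at 7.55, 8.3 and 8.34 and 2.87, 2.71 and 2.82 TPM in WT and 52, 54 and 51.6 and 21.4, 23.7 and 21.9 TPM in Ring1b-KO (log2 difference 2.56 ± 0.11, adjusted p = 2.9e-11 and log2 difference 2.62 ± 0.09, adjusted p = 2.86e-12). In Ring1a/b-dKO, Col4a1 was at a similar level (49.5 ± 2.66 TPM) and Col4a2 was higher than in Ring1b-KO (32.1 ± 0.689 TPM). Of 28 tested mesoderm and heart genes 22 rose and 2 fell (median 0.89), or 16 and 4 after quantile normalization. Nkx2-5, of heart progenitors, was at 0.09, 0.38 and 0.32 and 3.02, 3.74 and 3.59 TPM, and Gsc, of the organizer, at 0.29, 0.6 and 0.23 and 2.38, 3.18 and 3.66 TPM. The 2 that fell were Kdr, the Vegf receptor of haemangioblasts, from 6.79, 6.64 and 6.97 to 0.42, 0.52 and 0.64 TPM, and Tcf15, from 95.2, 83.6 and 79.4 to 49.2, 54.8 and 61.3 TPM. Of 30 tested trophoblast genes 25 rose and 3 fell (median 0.97). Gata2 was at 0.83, 0.91 and 0.85 TPM in WT and 8.06, 8.78 and 6.77 TPM in Ring1b-KO, and Hand1, of giant cells and early mesoderm, at 2.33, 2.73 and 2.29 and 15.9, 16.5 and 17 TPM, against 146, 159 and 157 TPM in Ring1a/b-dKO. Cdx2, the trophoblast regulator, stayed low, at 0.06, 0.24 and 0.14 and 0.81, 0.84 and 1.4 TPM, against 9.01, 8.75 and 8.74 TPM in Ring1a/b-dKO. Some genes stand in more than 1 of these lists.

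Simple epithelial keratins and claudins did not follow: of 21 tested 6 rose and 9 fell (median -0.12), and 19 of the 21 were lower in Ring1b-KO than in Ring1a/b-dKO. Krt18, a keratin of simple epithelia and trophoblast, was at 33.4, 40.0 and 34.2 TPM in WT, 75.2, 73.7 and 74.7 in Ring1b-KO and 622, 629 and 608 in Ring1a/b-dKO. Krt17 fell from 40.3, 38.6 and 40.2 to 15.6, 14.7 and 16.3 TPM and Krt19 from 26.4, 21.7 and 25.5 to 17.9, 18 and 15.1 TPM, while Krt19 was at 120.1, 125 and 129.6 TPM in Ring1a/b-dKO. Lgals1, the lectin galectin-1, showed the same contrast, falling from 199, 204 and 191 TPM in WT to 73.9, 72 and 70.3 TPM in Ring1b-KO and standing at 689.7, 688 and 709 TPM in Ring1a/b-dKO (log2 difference of Ring1b-KO from Ring1a/b-dKO -3.25 ± 0.04, adjusted p = 1.15e-16).

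The Polycomb genes themselves changed unevenly. Of 18 tested core and canonical PRC1 genes 9 rose and 4 fell (median log2 difference 0.42). Bmi1, a Pcgf protein of canonical PRC1, was at 1.43, 0.88 and 2.5 TPM in WT and 11, 9.6 and 9.32 TPM in Ring1b-KO (log2 difference 2.12 ± 0.19, adjusted p = 1.81e-07). Scml2, an X-linked PRC1 partner of germ cells, was at 1.49, 1.07 and 1.98 and 6.23, 9.11 and 8.38 TPM (log2 difference 1.83 ± 0.21, adjusted p = 3.35e-06). The groups were well separated for both. Some members at higher levels in WT moved the other way. Cbx7 fell from 176, 178 and 171 to 116, 119 and 131 TPM and Pcgf2, another canonical Pcgf protein, from 72.8, 63.5 and 69.4 to 52.9, 52.8 and 55.3 TPM (adjusted p = 0.000435 and 0.000527). Phc1 and Rnf2 were the other 2 that fell. Of the 15 core genes with an entry in the promoter table, CACGTG was found in the window of 6 (40.0%, against 10.2% of the tested genes). Other small lists varied widely, with 3 of 7 genes that read or remove ubiquitin on H2A, 4 of 8 HoxD genes and 0 of 8 HoxA genes. A link between the motif and the direction of change was not tested.

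Among 23 variant PRC1 subunits 9 rose and 7 fell (4 fell without Ring1b-KO library 3, without WT library 2 or with the chromosome 11 and 16 shifts removed), with a median near 0 (0.06, and -0.03 after median ratio scaling). Bcorl1, an X-linked corepressor of the Pcgf1 complex, was at 0.57, 0.77 and 1.15 TPM in WT and 9, 7.68 and 7.29 TPM in Ring1b-KO (log2 difference 2.30 ± 0.15, adjusted p = 7.33e-09), and Kdm2b, which brings that complex to CpG islands, at 32.7, 33.8 and 35.1 and 69.6, 77.5 and 72.8 TPM (log2 difference 1.09 ± 0.06, adjusted p = 8.48e-10). Every knockout library lay above every WT library for both. Auts2 fell from 8.44, 8.06 and 9.11 to 5.16, 4.77 and 4.75 TPM. Of 13 PRC2 genes 8 rose and 1 fell as deposited, 5 rose and 2 fell after median ratio scaling, and 5 to 6 rose when 1 library was left out. Suz12, a core subunit, was at 107, 114 and 106 TPM in WT and 177, 175 and 178 in Ring1b-KO (log2 difference 0.69 ± 0.09, adjusted p = 6.77e-06), and Aebp2, an accessory subunit, at 32, 29 and 29.4 and 71.2, 79 and 78.5 (log2 difference 1.31 ± 0.09, adjusted p = 8.33e-09). Phf19, also accessory, fell from 13.9, 14.7 and 13.6 to 6, 6.34 and 6.44 TPM. The catalytic subunit Ezh2 was at 95.7, 97.6 and 106 and 111, 109.9 and 109 TPM, a log2 difference of 0.14 ± 0.05 that passed as deposited but not after median ratio scaling (0.06, adjusted p = 0.395) or with either WT library 1 or 2 or any 1 Ring1b-KO library left out (adjusted p = 0.0679 to 0.142). None of 9 genes that read or remove ubiquitin on H2A rose, and 3 fell.

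Pluripotency genes split by the state they mark. Of 22 core pluripotency genes 10 rose and 10 fell (median -0.05), of 27 naive genes 16 rose and 7 fell (median 0.39), and of 30 formative and primed genes, which mark the step towards the epiblast after implantation, 4 rose and 22 fell (median -0.74). The medians kept their signs under both other scalings. Dppa5a, an RNA-binding protein of embryonic stem cells and among the most abundant messages, was at 1831, 1781 and 1769 TPM in WT and 4866, 4429 and 4987 TPM in Ring1b-KO (log2 difference 1.41 ± 0.09, adjusted p = 6.37e-09). Klf4, a naive pluripotency factor, was at 15.7, 16.8 and 15.6 TPM in WT, 61.2, 61.7 and 60.9 in Ring1b-KO, 3.13, 3.3 and 3.58 in Ring1a-KO and 9.37, 8.79 and 9.21 in Ring1a/b-dKO (log2 difference 1.87 ± 0.08, adjusted p = 2.74e-11 against WT). Ring1b-KO was thus the highest of the 4 groups and Ring1a-KO the lowest. Tcl1, an Akt cofactor, was at 20.1, 18.9 and 20.4 and 81.3, 86.5 and 84.7 TPM and Prdm14, which restrains the formative programme, at 3.65, 3.44 and 3.42 and 10.1, 9.64 and 9.79 TPM, with 34.6 ± 1.58 and 2.29 ± 0.518 TPM in Ring1a/b-dKO. Against Ring1a/b-dKO 16 of the 22 core genes were higher in Ring1b-KO and 4 lower. Not all naive genes rose: Il6st, the shared receptor subunit for Lif, fell from 19.8, 20.6 and 18.9 to 11.9, 11.9 and 11.7 TPM.

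Among formative genes, Pim2, a kinase, fell from 97.2, 95.4 and 101 TPM in WT to 8.66, 10.5 and 9.57 TPM in Ring1b-KO (log2 difference -3.22 ± 0.11, adjusted p = 2.56e-12), and it was as low in Ring1a-KO (9.84, 10.9 and 12.5 TPM) and Ring1a/b-dKO (10.1, 9.64 and 9.32 TPM). Mycn, the Myc relative of the epiblast, fell from 210.3, 209.7 and 213 to 30.7, 32.1 and 34.6 TPM (log2 difference -2.66 ± 0.06, adjusted p = 3.7e-14), and Myc, which also stands in the naive list, from 41.6, 36.9 and 44.9 to 17, 16.6 and 15.6 TPM (log2 difference -1.27 ± 0.07, adjusted p = 1.65e-09). Mycn stayed near the WT level in Ring1a-KO (186 ± 6.56 TPM). Zic2 fell from 29.2, 28.8 and 31.3 to 9.42, 10 and 9.04 TPM and Zic5 from 23.4, 27 and 25.7 to 7.03, 7.57 and 6.96 TPM. Both were also below WT in Ring1a-KO, at 12.8, 12.1 and 14.4 TPM (Zic2) and 11.4, 10.9 and 12.4 TPM (Zic5). Of the 30 formative genes 10 were higher and 14 lower in Ring1b-KO than in Ring1a-KO (median -0.17, against -0.74 from WT). Ring1a-KO was not compared with WT, so how far the fall was shared with it was not tested. Lin28a, an RNA-binding protein that blocks let-7 processing and a member of the core list, also fell from 180.3, 178 and 178 to 105.3, 106 and 113 TPM (log2 difference -0.72 ± 0.04, adjusted p = 3.07e-09). The WT and Ring1b-KO libraries did not overlap for any of these genes, which was a condition for naming most list members. Formative genes that rose included Eomes, which rose from 2.53, 1.97 and 2.43 to 7.29, 7.39 and 7.49 TPM, and Etv4, from 52.1, 49.5 and 50.9 to 69.3, 77 and 78.4 TPM. Otx2, a formative regulator, was at 13.1, 14.4 and 13.9 and 12.1, 12.7 and 12.1 TPM and did not pass (adjusted p = 0.195).

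Of 17 genes that write or remove DNA methylation 7 rose and 7 fell. The de novo methyltransferase Dnmt3b fell from 311, 317 and 303 to 117, 123 and 121.0 TPM (log2 difference -1.36 ± 0.08, adjusted p = 2.51e-09) and Dnmt3a from 100.1, 102 and 102 to 56, 55.5 and 60.2 TPM (log2 difference -0.81 ± 0.11, adjusted p = 1.19e-05). Their cofactor Dnmt3l was at 340.0, 333 and 345 and 356, 359.7 and 367 TPM and did not pass. Tet2, which oxidizes methylcytosine, rose from 14.9, 13.8 and 15.7 to 26, 29.6 and 28.4 TPM, and Hells, a remodeller needed for methylation, from 102, 103 and 103 to 153, 158 and 149 TPM.

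**Figure D5:**
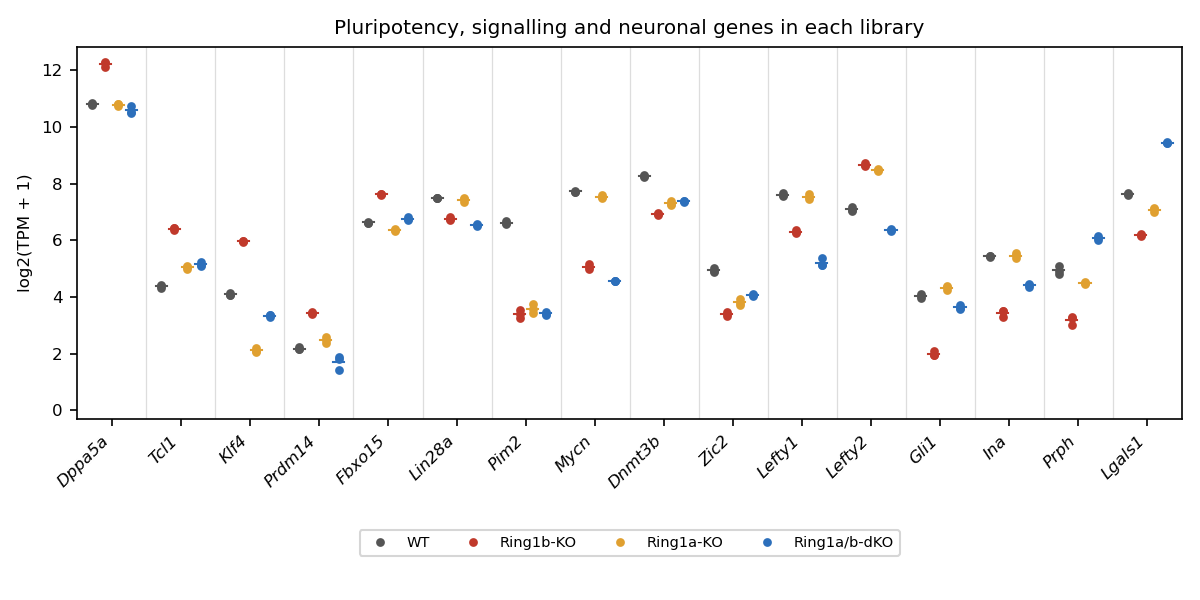
Level as log2(TPM + 1) of pluripotency, signalling and neuronal genes in each library, with 1 point per library, a bar at the group mean and colours for WT, Ring1b-KO, Ring1a-KO and Ring1a/b-dKO. Dppa5a, Tcl1, Klf4, Prdm14 and Fbxo15 are highest in Ring1b-KO, and Gli1, Ina, Prph and Lgals1 are lowest there.

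Signalling pathways were changed at single components. In the Nodal and Activin pathway 12 of 20 tested genes rose and 6 fell (median 0.29). The 2 Lefty genes, neighbouring targets and inhibitors of Nodal on chromosome 1, moved in opposite directions: Lefty1 fell from 188, 191 and 203 to 75.6, 78.2 and 81 TPM (log2 difference -1.30 ± 0.12, adjusted p = 2.56e-07), and Lefty2 rose from 131, 133 and 142 to 394, 399 and 428 TPM (log2 difference 1.58 ± 0.11, adjusted p = 1.24e-08). Pcsk6, a convertase that processes Nodal, rose from 9.99, 11 and 11.2 to 48.5, 51.3 and 53.1 TPM (log2 difference 2.15 ± 0.07, adjusted p = 2e-12). The ligand gene Gdf1 fell from 7.41, 5.91 and 6.09 to 1.75, 2.4 and 2.03 TPM. In the Bmp pathway 9 of 19 rose and 2 fell (median 0.21), and 6 rose and 5 fell after quantile normalization. Bmp4 rose from 6.6, 7.21 and 6.97 to 24.1, 18.6 and 23 TPM, Bmp7 from 1.21, 0.92 and 1.32 to 5.39, 6.13 and 4.86 TPM and the inhibitory Smad6 from 1.21, 1.1 and 1.63 to 6.84, 7.3 and 6.6 TPM. Their target Id1 was at 82.6, 78.8 and 74 and 87.1, 76.6 and 93.1 TPM, with overlap, and Id3 fell from 31.5, 28.1 and 29.1 to 18.9, 19.05 and 21.9 TPM.

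In the Hedgehog and Notch pathways 5 of 21 rose and 9 fell (median -0.28), and 2 rose and 14 fell after quantile normalization. Gli1, a transcription factor and target of Hedgehog signalling, fell from 16.4, 14.4 and 15.3 to 3.28, 2.87 and 2.86 TPM (log2 difference -2.03 ± 0.12, adjusted p = 1.62e-09), and Ptch1, the Hedgehog receptor and also a target, from 21, 21.8 and 20.4 to 9.87, 10.9 and 10.9 TPM. Gli1 was at 12, 11 and 11.2 TPM in Ring1a/b-dKO, above Ring1b-KO (log2 difference of Ring1b-KO from it -1.63 ± 0.12, adjusted p = 1.63e-08). The Notch ligands Dll1 and Dll3 fell from 5.88, 6.07 and 5.89 and 11, 9.4 and 9.9 to 1.19, 1.18 and 2.62 and 2.57, 2.65 and 3.44 TPM. Of 35 Wnt pathway genes 13 rose and 11 fell, and the median was 0.03, changing sign to -0.05 and -0.12 under the other scalings. Axin2, a feedback inhibitor and target of the pathway, rose from 2.17, 2.22 and 2.64 to 14.6, 13.8 and 13.3 TPM (log2 difference 2.16 ± 0.09, adjusted p = 2.55e-11), while Sp5, also a target, fell from 2.27, 2.09 and 2.23 to 0.55, 0.47 and 0.7 TPM (log2 difference -1.02 ± 0.13, adjusted p = 1.1e-05). Tcf7l1, the repressor at Wnt targets, fell from 43.4, 45.6 and 48.3 to 20.9, 21.5 and 20.7 TPM, and the ligand Wnt11 rose from 0.42, 0.34 and 0.55 to 3.57, 3.51 and 3.71 TPM. In the Fgf and Erk pathway 10 of 26 rose and 10 fell, or 7 and 14 after quantile normalization. Fgfbp1, a carrier of Fgf, fell from 27.5, 29.2 and 26.8 to 5.04, 5.92 and 5.99 TPM, and the receptors Fgfr3 and Fgfr4 rose from 0.28, 0.4 and 0.73 and 0.67, 0.67 and 0.61 to 4.34, 3.65 and 5.36 and 2.48, 2.56 and 2.89 TPM.

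Most genes of the neuronal cytoskeleton that wild-type cells already expressed fell. Of 24 neuronal cytoskeleton and growth cone genes, all at 1 TPM or more in WT, 15 fell and 6 rose (median -0.62). Ina, the intermediate filament internexin, fell from 43, 42.3 and 41.4 to 8.8, 10.2 and 10.4 TPM (log2 difference -2.004 ± 0.08, adjusted p = 1.8e-11). Crmp1, of growth cone signalling, fell from 108, 103 and 104 to 25.1, 26.3 and 27.7 TPM (log2 difference -1.95 ± 0.06, adjusted p = 2.42e-12). Tuba1a, an alpha-tubulin of young neurons, is not in the list and was named for its large fall in TPM. It fell from 1081, 1047 and 1089 to 362, 355 and 353 TPM (log2 difference -1.58 ± 0.04, adjusted p = 3.8e-13). Every knockout library lay far below every WT library for these 3. Gap43, of growth cones, fell from 24, 23.1 and 21.5 to 2.64, 3.36 and 3.74 TPM. It lies on chromosome 16, whose median shift was -0.221 to -0.199 in the 3 knockout libraries, against a log2 difference of -2.50 for the gene. Prph, peripherin, is also outside the list and was named for being low against both WT and Ring1a/b-dKO. It fell from 29.3, 33.2 and 26.8 to 6.96, 8.86 and 8.5 TPM but was at 70.3, 62.8 and 67 TPM in Ring1a/b-dKO. Mapt, the microtubule protein tau, and Tubb2a rose, from 11.8, 12.3 and 12.4 and 22.9, 22.7 and 25.3 to 25.6, 26.1 and 29.7 and 59.8, 56 and 58.1 TPM. Of 16 neural bHLH and zinc finger factors 7 rose and 6 fell, or 5 and 7 after quantile normalization. Neurod1 fell from 18, 18.9 and 16.2 to 3.25, 3.48 and 3.72 TPM and Hes6 from 72.5, 69.4 and 83.7 to 14.8, 15.3 and 19.5 TPM, while Zic1 rose from 0.02, 0 and 0.07 to 2.54, 3.13 and 2.42 TPM.

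Imprinted genes, expressed from the copy of a single parent, changed both ways, 15 of 37 higher and 13 lower (median -0.10). Igf2, a placental and fetal growth factor, rose from 18.3, 18.8 and 20.01 to 77.7, 77.3 and 80.9 TPM (log2 difference 1.99 ± 0.04, adjusted p = 1.64e-14), against 546, 548 and 536 TPM in Ring1a/b-dKO. Plagl1, a zinc finger growth inhibitor, rose from 5.3, 4.98 and 4.38 to 25.8, 29.7 and 30.1 TPM (log2 difference 2.33 ± 0.14, adjusted p = 2.46e-09) and Sfmbt2, a Polycomb-like protein of trophoblast, from 7.84, 10.1 and 9.2 to 34.9, 39.3 and 37.7 TPM (log2 difference 1.94 ± 0.14, adjusted p = 1.81e-08). Meg3 and Rian, noncoding RNAs of the maternal copy of the Dlk1 region, fell from 171, 159 and 167 and 224, 222 and 209 to 64, 59.9 and 70.0 and 73.5, 74.8 and 79.1 TPM. Nnat fell from 33.3, 32.2 and 36.1 to 5.16, 7.55 and 7.67 TPM and Snrpn from 146, 136 and 145 to 52.8, 51.6 and 52.7 TPM. Which parental copy gave the RNA was not measured.

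Of 8 cyclin-dependent kinase inhibitor genes, brakes of the cell cycle, 6 rose and none fell (median 0.54), and all 7 that differed from Ring1a/b-dKO were lower in Ring1b-KO. Cdkn2c was at 0.33, 0.19 and 0.18 TPM in WT and 2.11, 2.38 and 3.22 TPM in Ring1b-KO (log2 difference 1.52 ± 0.13, adjusted p = 1.31e-07), and Cdkn1a, also a p53 target, at 26.8, 26.4 and 25.8 and 45.9, 45.2 and 48.1 TPM (log2 difference 0.79 ± 0.04, adjusted p = 3.76e-10). Among cyclins, Ccnd1 fell from 68.2, 72.4 and 70.5 to 26.3, 25.5 and 26.1 TPM whereas Ccnd2 and Ccnd3 rose from 1.15, 1.27 and 1.13 and 104, 104 and 115 to 5.65, 6.11 and 5.24 and 193, 197 and 208 TPM. Of 37 proliferation and replication licensing genes 10 rose and 10 fell as deposited, 9 and 15 after median ratio scaling and 14 and 9 with the chromosome 11 and 16 shifts removed. Of 28 p53 targets 16 rose and 4 fell (median 0.47), with Btg2, an antiproliferative gene, at 10.8, 11.8 and 12.2 and 30.4, 29.5 and 30.9 TPM, while Gadd45a fell from 37.9, 39.2 and 39 to 23.1, 22 and 26.7 TPM.

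Of 22 interferon-related genes 8 rose and 6 fell as deposited, 7 and 8 after median ratio scaling and 5 and 7 after quantile normalization. The cytosolic RNA sensor Ddx58 (RIG-I) fell from 25.4, 25 and 25.6 to 11, 11.5 and 9.08 TPM, Oasl2 from 3.83, 4.66 and 5.07 to 1.03, 0.93 and 1 TPM and Ifitm3 from 378, 367 and 423 to 175, 174 and 181 TPM, whereas the class I antigen gene H2-K1 rose from 74.3, 76 and 74.2 to 121.3, 137 and 121.1 TPM. Gbp2, an interferon-induced GTPase, was among the genes that fell most, from 12.5, 13.1 and 11.9 to 0.85, 1.11 and 1.27 TPM (log2 difference -2.70 ± 0.12, adjusted p = 4.68e-11). Enpp2, which makes lysophosphatidic acid, fell from 9.27, 8.26 and 8.01 to 0.49, 0.25 and 0.35 TPM (log2 difference -2.80 ± 0.11, adjusted p = 2.46e-11), and Serpina3m, a protease inhibitor, from 17.1, 15.6 and 15.2 to 1.54, 1.4 and 1.22 TPM. Hmgxb4 fell from 145, 151 and 146 to 35.8, 42.6 and 37.4 TPM, against 106, 104 and 105.1 TPM in Ring1a/b-dKO, and Gna14, a G-protein subunit, from 6.46, 4.99 and 5.84 to 0.1, 0.05 and 0.19 TPM.

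Metabolic genes moved in both directions. Of 29 glycolysis and hypoxia genes 17 fell and 8 rose (median -0.33), including Gapdh, from 6184, 6083 and 6528 to 4119, 4279 and 4257 TPM (log2 difference -0.57 ± 0.05, adjusted p = 4.32e-07), and Pdk1, which limits entry of pyruvate into mitochondria, from 69.3, 70.2 and 70.4 to 32.4, 35.6 and 32 TPM (log2 difference -1.05 ± 0.10, adjusted p = 2.64e-07). The glucose transporters went opposite ways, Slc2a1 falling from 226, 225 and 236 to 120.4, 127 and 123 TPM (log2 difference -0.88 ± 0.05, adjusted p = 5.38e-10) and Slc2a3 rising from 148, 146 and 148 to 348, 352 and 352 TPM (log2 difference 1.25 ± 0.05, adjusted p = 3.55e-11). Vegfa, the angiogenic growth factor, rose from 9.53, 8.94 and 10.4 to 37, 33.9 and 37.6 TPM. Of 23 cholesterol synthesis genes 15 rose and 3 fell (median 0.25), with Msmo1 at 47.4, 46.9 and 44 and 77.1, 74.8 and 75.6 TPM. Of 50 nuclear genes of the respiratory chain 23 rose and 2 fell as deposited, 9 and 6 after median ratio scaling and 21 and 2 after quantile normalization, and 14 to 15 rose without Ring1b-KO library 1 or 3 or WT library 3. Of 79 cytosolic ribosomal protein genes 4 rose and 16 fell as deposited, 0 and 25 after median ratio scaling and 18 and 14 after quantile normalization, so the direction of the ribosomal list depended on the scaling. Of 19 integrated stress response genes 10 rose and 2 fell, or 8 and 4 after median ratio scaling. Asns, the asparagine synthetase that Atf4 induces, rose from 161, 160.1 and 165 to 248, 237 and 242 TPM and Chac1 from 3.46, 3.33 and 3.6 to 8.58, 8.75 and 7.85 TPM, while Atf4 itself was at 202, 202 and 202 and 189, 187 and 183 TPM.

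Set against the other genotypes, Ring1b-KO differed from Ring1a-KO at 9105 genes (51.0%), 6051 of them higher and 3054 lower in Ring1b-KO, and from Ring1a/b-dKO at 10692 genes (59.9%), 3358 higher and 7334 lower. The second balance depended on the scaling: 31.4% of those calls were higher in Ring1b-KO as deposited, 48.2% after median ratio scaling and 48.0% after quantile normalization. These comparisons share the Ring1b-KO libraries with the one against WT, so their counts are not independent. A gene low in 1 of the 2 groups compared can pass the filter through the other, so counts for lists of mostly silent genes describe the members only. The mean distance between libraries, as the root mean square difference in log2(TPM + 1) over the tested genes, was 0.415 within WT, 0.455 within Ring1b-KO, 0.799 from WT to Ring1b-KO, 0.811 from Ring1a-KO and 0.815 from Ring1a/b-dKO. Several developmental lists were mostly lower in Ring1b-KO than in Ring1a/b-dKO, with 24 of 30 trophoblast genes, 38 of 41 Pax, Fox, Sox and T-box factors and 25 of 35 Wnt pathway genes lower and 1, 0 and 4 higher. Among 28 endoderm genes 15 were lower and 8 higher, among 28 mesoderm and heart genes 19 and 4, and among 16 neural bHLH and zinc finger factors 8 and 3. The germ-line lists were divided, with 10 higher and 10 lower of 27 piRNA-pathway genes, 6 and 15 of 35 meiotic genes and 15 and 12 of 32 X-linked and testis-enriched genes.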

How the data were processed

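TPM values per gene were deposited by the authors for 18 libraries made from total RNA, extracted with Trizol, with a TruSeq RNA kit, per the labels. RSEM, TopHat2 2.1.1, edgeR and the build GRCm38.p5 stand in the submitters' processing notes without a role, and the strand of counting is not given in the sources used here. Depth is unknown, since TPM keeps none, so no counting interval can be given. The deposited mean columns (6) were not used. Gene identifiers were matched to GENCODE positions on GRCm38, 55227 of 56551 with a symbol.

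Differences are on the log2(TPM + 1) scale and so are too small for low genes. The 17842 genes with 1 TPM in at least 3 of 18 libraries were fitted with limma 3.58.1 in R 4.3.3 on 6 group means (12 degrees of freedom for the spread, moderated with a trend), two-sided, adjusted by Benjamini-Hochberg over all of them and called under 0.05, after a check on simulated data. Named genes were chosen by rule: Rnf2 and Ring1, the largest called changes without overlap in log2 and in TPM with 5 TPM or more in the higher group, up to 4 rises and 4 falls per list, all members of short lists, Hox genes, some set pluripotency and signalling genes, and genes highest or lowest in Ring1b-KO against both WT and Ring1a/b-dKO. A few genes under the rule are not reported here. Members and lists were chosen with earlier results of these data known. Alternatives were another pseudocount and filter, other scalings, a replicate block, the 6 libraries alone, each library left out, and, added after seeing the data, removal of the chromosome 11 and 16 shifts.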

Additional observations from a re-analysis of the deposited data

How the results depend on the processing

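Counts of genes called against WT stayed between 8317 (1 library left out) and 9833 (no filter on low values), against 9247 as reported, and the direction of small changes depended most on the scaling. The counts that moved by more than 1.5 times were these. With a pseudocount of 0.1 TPM, 2638 genes were at least 2-fold higher and 643 lower against WT, 2480 were 2-fold higher against Ring1a-KO, and 1101 were higher and 2505 lower against Ring1a/b-dKO. After quantile normalization, 4967 genes were lower, 953 at least 2-fold higher and 713 lower against WT, 4861 lower and 719 at least 2-fold lower against Ring1a-KO, and 5084 higher and 979 at least 2-fold lower against Ring1a/b-dKO. Median ratio scaling gave 5145 higher and 1032 at least 2-fold lower against Ring1a/b-dKO. Of the calls against WT, 7256 were shared in direction after quantile normalization and 8559 after median ratio scaling. The cause of these differences was not tested. With the filter set on the 6 libraries compared, fewer genes were tested, and 6 HoxA, 4 HoxB, 40 other homeobox and 16 Pax, Fox, Sox and T-box genes rose.

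With 1 library left out, genes called ranged from 8317 to 8474 against WT (5600 to 5785 higher, 2689 to 2756 lower, 1476 to 1515 and 429 to 444 at 2-fold), from 8297 to 8554 against Ring1a-KO (5270 to 5818 higher, 2702 to 3089 lower, 1373 to 1448 and 431 to 490 at 2-fold) and from 9795 to 9992 against Ring1a/b-dKO (3020 to 3079 higher, 6741 to 6935 lower, 705 to 725 and 1529 to 1596 at 2-fold). The labels number the libraries, but deviations from the group means of same-numbered WT and Ring1b-KO libraries correlated at only -0.034, 0.012 and 0.071, so the numbers were not taken as pairs. A replicate block gave 9110 genes against WT, 9021 against Ring1a-KO and 10584 against Ring1a/b-dKO. Removing the chromosome 11 and 16 shifts, chosen after seeing the data, gave 9267 against WT.

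Of 182 named genes tested, 175 were called, and 168 kept their direction and call under each of the 15 alternatives. Ezh2, Hoxa2, Hoxb6, Hoxd11, Hoxd12, Pou5f1 and Tdrd12 lost the call under at least 1 of them, and no called gene changed sign. Most named genes were chosen among the largest called changes without overlap, so their stability follows in part from the choice and does not hold for all calls. Hoxb1 (-0.069), Hoxb5 (-0.104) and Xist (-0.204), none of them called, turned negative after quantile normalization. Depth is unknown, so how far low TPM values are limited by counting error could not be given.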

Other observations

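Beside the Xlr, Zscan4 and Hox regions, other neighbouring protein-coding genes were at least 2-fold higher together in Ring1b-KO, and the genes named here were chosen after their values were seen. On the X chromosome 8 tested neighbours at chrX:148180724-149984982 had a median log2 difference of 2.48. Ott, a testis-enriched gene there, was at 0.2, 0.03 and 0.47 TPM in WT and 16.2, 11.8 and 13.6 TPM in Ring1b-KO, and its neighbour Luzp4 at 0.15, 0.28 and 0.17 and 13.1, 13.3 and 13.6 TPM. A run of 7 tested genes of a predicted multi-copy family at chr10:104142987-104196522 had a median of 3.48, and its member Gm4340 was listed at 0 in all WT libraries and was at 9.54, 9.58 and 11.5 TPM in Ring1b-KO. Tcstv1 and Tcstv3, genes of the 2-cell embryo in separate runs on chromosome 13, were also listed at 0 in WT and reached 4.47, 4.64 and 4.5 and 4.53, 7.2 and 5.65 TPM. How reads were split among such copies is uncertain.

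A run of 4 neighbours at chr9:78367052-78443237 holds genes of other kinds, with a median of 1.45. It starts with Dppa5a, described above. Ooep, a maternal factor of the egg, was at 13, 12 and 10.5 TPM in WT and 48.4, 52.5 and 51.6 TPM in Ring1b-KO (log2 difference 2.02 ± 0.07, adjusted p = 6.04e-12). Ddx43, a germ-cell RNA helicase, was at 3.34, 3.37 and 3.03 and 9.37, 10.3 and 11.3 TPM and Cgas, the cytosolic DNA sensor, at 0.54, 0.65 and 0.57 and 3.44, 3.33 and 3.57 TPM. The groups did not overlap for any of the 3. Among 4 tested X inactivation genes none rose and 1 fell, and limma gave none higher at an unadjusted p under 0.05. Xist, the noncoding RNA that coats the inactive X, stayed under 1 TPM in every library of both groups.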
